A study of Mus musculus with 4 samples.

Results

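AOC3-LN and AOC11-LN are tumor cell lines from 2 mice that carried carcinogen-induced oral cancers with overt metastases in the draining cervical lymph nodes, and each line was derived from the lymph node tumor of its own mouse. Their transcriptomes were compared gene by gene. Of 34685 genes with an entry in the expression table, 13314 reached 1 FPKM or more (fragments per kilobase of transcript, scaled to the mapped fragments of the library) in either line and had a longest annotated transcript of 200 bases or longer, and these are the genes described here. All differences are log2(FPKM + 1) of AOC3-LN minus log2(FPKM + 1) of AOC11-LN, so a positive value is higher in AOC3-LN, and a gene is called where the difference exceeds 1 in size.

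The mice were C57BL/6 males whose buccal mucosa was painted with the carcinogen DMBA (7,12-dimethylbenz[a]anthracene) by cotton swab, over a longer period for the mouse that gave AOC11-LN than for the mouse that gave AOC3-LN. Cells were passed through a subcutaneous tumor in a syngeneic mouse and depleted of tumor-associated fibroblasts, and they were then grown as untreated cultures in DMEM/F12 with serum. Polyadenylated RNA was sequenced from 1 library per line, 4 in the series, where the other 2 are AOC3 and AOC11 from the oral tumors of the same mice. With 1 mouse, 1 line and 1 library on each side, no difference has a replicate check, no test is possible, and differences between mice, tumors, lines and libraries cannot be told apart.

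The carcinoma label was compared with marker genes. Of 10 epithelial markers, all 10 were at 1 FPKM or more in AOC3-LN and 9 in AOC11-LN, with summed levels of 3791 and 3488 FPKM. The exception was Trp63, the regulator of basal squamous epithelium, at 2.10 FPKM in AOC3-LN and 0.841 FPKM in AOC11-LN. The 10 fibroblast markers summed to 0.323 and 1.23 FPKM, the 8 B cell markers to 0.330 and 0.0706 FPKM, the 8 endothelial markers to 0.444 and 0.527 FPKM, and the 6 muscle markers with an entry to 0.229 and 0.122 FPKM. The 10 T cell markers summed to 1.65 and 4.40 FPKM with Cd3e listed at 0 in both lines. The 10 macrophage markers summed to 10.2 and 10.5 FPKM, most of it Cd68 at 8.79 FPKM in AOC3-LN and Csf1r at 6.01 FPKM in AOC11-LN, while Ptprc, the pan-leukocyte marker CD45, was at 0.0640 and 0.0488 FPKM. In bulk RNA, fewer cells of a type and less RNA per cell cannot be told apart.

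The step size of low FPKM values corresponded to about 28200000 fragments in AOC3-LN and 32400000 in AOC11-LN. At those depths 1 FPKM of a transcript of 3341 bases, the median length of the protein-coding genes, is about 90 and 103 fragments, and the exact 95% Poisson interval runs from 0.804 to 1.23 FPKM and from 0.816 to 1.21 FPKM. These intervals cover counting error only.

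Of the 13314 genes, 694 (5.21%) were called higher in AOC3-LN and 1438 (10.8%) higher in AOC11-LN. The calls were therefore split 32.6% to 67.4%, and under quantile normalization of the 4 columns, which moved the median of all genes from -0.10 to 0.03, the split was 45.9% to 54.1%. Of the genes tested, 1158 reached 1 FPKM in AOC11-LN alone and 458 in AOC3-LN alone. Genes that passed only through their higher line had to differ, so counts and medians of lists with many of them are descriptions of the genes that passed. Counts of calls in a list below are to be set against 5.21% and 10.8% of all genes. Differences above 3 in size were seen for 43 genes higher in AOC3-LN and 93 higher in AOC11-LN. The middle of the distribution was narrow by comparison, with the 25th and 75th percentiles at -0.54 and 0.28. Just inside the expression limit lay Mak at 0.447 FPKM in AOC3-LN and 1.0003 FPKM in AOC11-LN, and just outside it lay Stac2 at 0.99987 and 0.0745 FPKM.

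**Figure D1:**
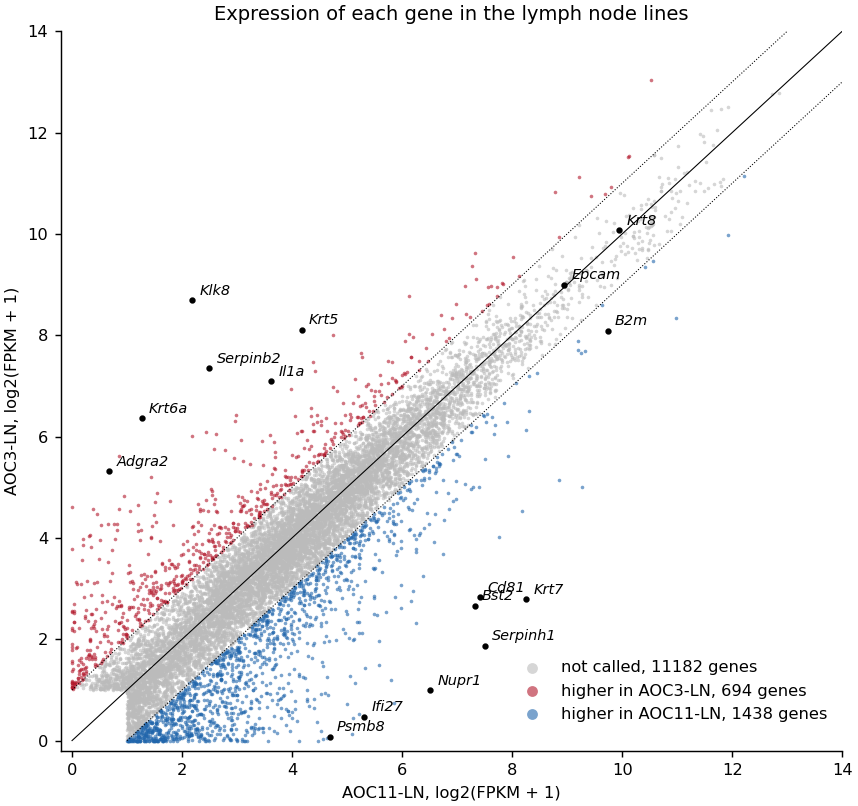
Level of each of the 13314 genes in AOC11-LN (horizontal) and AOC3-LN (vertical), both in log2(FPKM + 1). The solid line marks equal levels and the dotted lines a difference of 1. Klk8 at 411 against 3.53 FPKM and Serpinh1 at 2.65 against 180 FPKM lie farthest from the line, while Krt8 and Epcam lie on it.

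Interferons are cytokines that, through JAK kinases and transcription factors such as STAT2, IRF9 and IRF1, induce genes which block viral replication and load peptides onto major histocompatibility complex (MHC) class I molecules for inspection by CD8+ T cells. The transcription factors bind the interferon-stimulated response element in the promoters of many of these genes. Squamous epithelia are marked by basal keratins, by stress keratins that appear in wounds and tumors, and by secreted proteases and cornified-envelope proteins of late differentiation. Calls in the interferon-related lists were mainly toward AOC11-LN, and those among the kallikreins and late squamous genes mainly toward AOC3-LN.

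Promoter windows from 250 bases before to 50 bases after the transcription start (RefSeq, GRCm38.p6) were found for 9202 of 13302 gene symbols tested, taking the first listed start of each gene. The 9-base core of the interferon-stimulated response element, GAAANNGAA on either strand, stood in 6.80% of all these windows, in 5.16% of those of genes called higher in AOC3-LN and in 9.60% of those of genes called higher in AOC11-LN. Among the interferon-induced antiviral genes it stood in 18 of 30 windows. In the list of guanylate-binding proteins and immunity-related GTPases (the GTPase list below) it stood in 11 of 12. Among the class I antigen presentation genes it stood in 5 of 20. The following are the 250 bases before the start, on the gene's own strand, of the 4 called genes of these lists with the largest difference that hold the core there, and capitals mark every match, which overlap in Bst2 and Isg15:
Bst2: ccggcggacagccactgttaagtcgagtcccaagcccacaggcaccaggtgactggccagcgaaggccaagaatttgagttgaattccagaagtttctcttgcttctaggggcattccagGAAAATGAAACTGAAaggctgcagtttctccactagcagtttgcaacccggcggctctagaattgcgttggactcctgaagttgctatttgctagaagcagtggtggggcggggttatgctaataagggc
Isg15: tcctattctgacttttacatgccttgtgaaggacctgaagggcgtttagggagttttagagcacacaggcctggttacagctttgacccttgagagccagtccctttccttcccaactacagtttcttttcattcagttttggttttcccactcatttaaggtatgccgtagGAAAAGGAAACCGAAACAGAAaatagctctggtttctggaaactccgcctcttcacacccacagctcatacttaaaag
Gbp2: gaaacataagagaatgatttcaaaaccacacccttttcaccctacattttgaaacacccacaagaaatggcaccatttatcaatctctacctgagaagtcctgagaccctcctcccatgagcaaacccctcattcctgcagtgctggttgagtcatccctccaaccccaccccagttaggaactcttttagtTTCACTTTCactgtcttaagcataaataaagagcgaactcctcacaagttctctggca
Tgtp1: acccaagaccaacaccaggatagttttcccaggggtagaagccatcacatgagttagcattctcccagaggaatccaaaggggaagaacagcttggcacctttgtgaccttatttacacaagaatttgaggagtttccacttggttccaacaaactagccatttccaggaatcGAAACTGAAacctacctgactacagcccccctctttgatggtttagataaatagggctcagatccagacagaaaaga
These windows lie at chr8:71537473-71537722 (minus strand), chr4:156200819-156201068 (minus strand), chr3:142620413-142620662 (plus strand) and chr11:48992247-48992496 (minus strand). Bst2 holds 2 matches, which begin 130 and 124 bases before the start, Isg15 holds 3, which begin 78, 72 and 66 bases before it, and Gbp2 and Tgtp1 hold 1 each. No match to these letters was present in the windows of Oasl2, Psmb8 and Tap1, which differed between the lines as well. A match is a stretch of letters and not a measured binding site.

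The antiviral genes were lower in AOC3-LN nearly throughout. Of 39 list members that passed the filter (of 44), 35 were called higher in AOC11-LN and 0 higher in AOC3-LN, and the median difference was -2.12 against -0.10 over all genes. Of the 39, 30 were under 1 FPKM in AOC3-LN and passed only through AOC11-LN. Bst2, which encodes tetherin, a membrane protein that holds budding virions on the cell surface (ENSMUSG00000046718.8, chromosome 8, 71534255 to 71537456 in mm10), stood at 5.32 FPKM in AOC3-LN and 159 FPKM in AOC11-LN, a difference of -4.66. Ifitm3, whose product blocks virus entry at endosomes, stood at 22.2 and 287 FPKM, a difference of -3.63. Isg15, the ubiquitin-like modifier induced by interferon, stood at 0.411 and 14.5 FPKM, a difference of -3.45.

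The same direction was seen for Ifi27, an interferon-induced mitochondrial and nuclear membrane protein, at 0.383 and 38.6 FPKM. Oasl2, of the oligoadenylate synthetase family, was at 0.138 and 21.9 FPKM. The cytosolic RNA sensor genes Ddx58 (RIG-I) and Ifih1 (MDA5) were at 1.38 and 17.3 FPKM and at 0.482 and 5.21 FPKM. Gaps of this kind did not extend to every member. Eif2ak2, the double-stranded RNA kinase PKR, was at 5.56 and 6.87 FPKM, and Trim25, the ubiquitin ligase that acts on RIG-I, was at 16.9 and 12.4 FPKM. A further 9 members past the filter were listed at 0 in AOC3-LN, among them Ifit1 at 1.78 FPKM, Ifit3 at 2.13 FPKM, Oas1a at 3.29 FPKM and Rtp4 at 7.02 FPKM in AOC11-LN, and no fold is given for these.

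The guanylate-binding proteins and immunity-related GTPases are large GTPases that act on vacuoles of intracellular pathogens. The list also holds DNA-sensor genes such as Ifi204 and Aim2, which are not GTPases. Of 20 members 14 passed the filter, 10 of them only through AOC11-LN, and these 14 were called higher in AOC11-LN with a median of -2.02. Gbp2 was at 0.508 FPKM in AOC3-LN and 14.2 FPKM in AOC11-LN. Irgm1 was at 1.74 and 11.7 FPKM, and Ifi204, a cytosolic DNA sensor, at 1.39 and 11.9 FPKM. Tgtp1 at 0.0132 and 5.70 FPKM and Tgtp2 at 0.0399 and 4.25 FPKM are near-identical neighbours whose reads may have been split between them, so their separate values are uncertain.

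Class I antigen presentation differed in the peptide supply more than in the classical heavy chains. Of 22 members past the filter (of 23), 17 were called higher in AOC11-LN and 0 higher in AOC3-LN, with a median of -2.23, and 7 of the 22 passed only through AOC11-LN. Psmb8, the immunoproteasome subunit LMP7 (ENSMUSG00000024338.15, chromosome 17, 34197721 to 34201454), was at 0.0516 FPKM in AOC3-LN and 24.7 FPKM in AOC11-LN, a difference of -4.61. Its partner Psmb9 was at 0.132 and 10.1 FPKM, and Psmb10, the remaining inducible subunit, was at 22.3 and 71.4 FPKM. The proteasome activator genes Psme1 and Psme2 were at 31.3 and 167 FPKM and at 30.4 and 152 FPKM.

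The peptide transporter genes Tap1 and Tap2 were at 0.164 and 6.38 FPKM and at 0.103 and 8.87 FPKM. Tapbp, which encodes tapasin, the protein that bridges the transporter and class I molecules, was at 14.1 and 94.9 FPKM. Erap1, the aminopeptidase that trims peptides in the endoplasmic reticulum, was at 2.83 and 22.98 FPKM. Levels of the transporter, its bridge and the trimming enzyme were thus all lower in AOC3-LN.

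B2m, the invariant light chain of class I molecules, was at 272 FPKM in AOC3-LN and 851 FPKM in AOC11-LN, a difference of -1.64. H2-K1, a classical heavy chain, was at 385 and 449 FPKM, a difference of -0.22, and H2-D1 was at 192 and 173 FPKM, a difference of 0.15. The classical heavy chains therefore did not reach a call. The nonclassical H2-Q4 was at 0.863 and 24.3 FPKM and H2-T23 at 6.404 and 33.5 FPKM, with the reservation that genes of this family share sequence and their reads may be assigned to the wrong member. The general chaperones of the pathway were close in both lines, with Calr (calreticulin) at 469 and 441 FPKM and Canx (calnexin) at 186 and 160 FPKM.

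Among 21 interferon signaling components past the filter (of 22), 9 were called higher in AOC11-LN and 1 higher in AOC3-LN, with a median of -0.74. Irf1, the transcription factor induced early by interferon-gamma, was at 21.1 FPKM in AOC3-LN and 96.5 FPKM in AOC11-LN. Irf7, which amplifies type I interferon production, was at 0.288 and 3.54 FPKM, and Irf9, the DNA-binding part of the type I interferon complex, at 1.25 and 6.56 FPKM. Tmem173, which encodes the DNA-sensing adaptor STING, was at 0.0909 and 6.59 FPKM, a difference of -2.80.

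The receptor genes were divided. Ifngr1 and Ifngr2, the receptor chains for interferon-gamma, were at 7.65 and 18.9 FPKM and at 3.06 and 11.7 FPKM, both called. Ifnar1 and Ifnar2, the receptor chains for type I interferons, were at 12.7 and 9.95 FPKM and at 12.4 and 16.6 FPKM, neither called. Jak2 was at 6.83 and 17.7 FPKM, and Jak1 at 33.9 and 25.2 FPKM. Socs3, a feedback inhibitor of JAK kinases, was the member called higher in AOC3-LN, at 14.4 and 4.82 FPKM.

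The primary lines of the same mice, AOC3 and AOC11, are another pair of libraries, whose values entered neither the filter nor the calls, although the gene lists were chosen with earlier results of all 4 lines known. Over the same 13314 genes, 732 (5.5%) were higher in AOC3 and 603 (4.53%) higher in AOC11 by more than 1. The antiviral genes had a median difference of -0.31 between AOC3 and AOC11 with 4 of 39 called higher in AOC11 and 1 higher in AOC3, Oasl1 at 5.64 FPKM in AOC3 and 0.355 FPKM in AOC11. The GTPase list had -0.16 with 0 of 14 higher in AOC11 and 1 higher in AOC3. That gene was the DNA sensor gene Aim2 at 10.3 and 0.197 FPKM. The class I genes had -0.62 with 9 of 22 higher in AOC11 and 0 higher in AOC3. Isg15 was at 4.40 FPKM in AOC3 and 4.87 FPKM in AOC11, both between the values of the lymph node lines. Both primary lines lay between the lymph node lines in 34 of the 39 antiviral genes. The same held for 13 of the 14 genes of the GTPase list and 18 of the 22 class I genes. Over all 13302 gene symbols tested, AOC3-LN was lowest and AOC11-LN highest in 2115 (15.9%). The order follows in part from the lymph node difference itself. It follows in part from the filter too, which 30 of the 39 and 10 of the 14 passed only through AOC11-LN. Whether the lymph node pair and the primary pair differ beyond error could not be tested with these libraries.

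**Figure D2:**
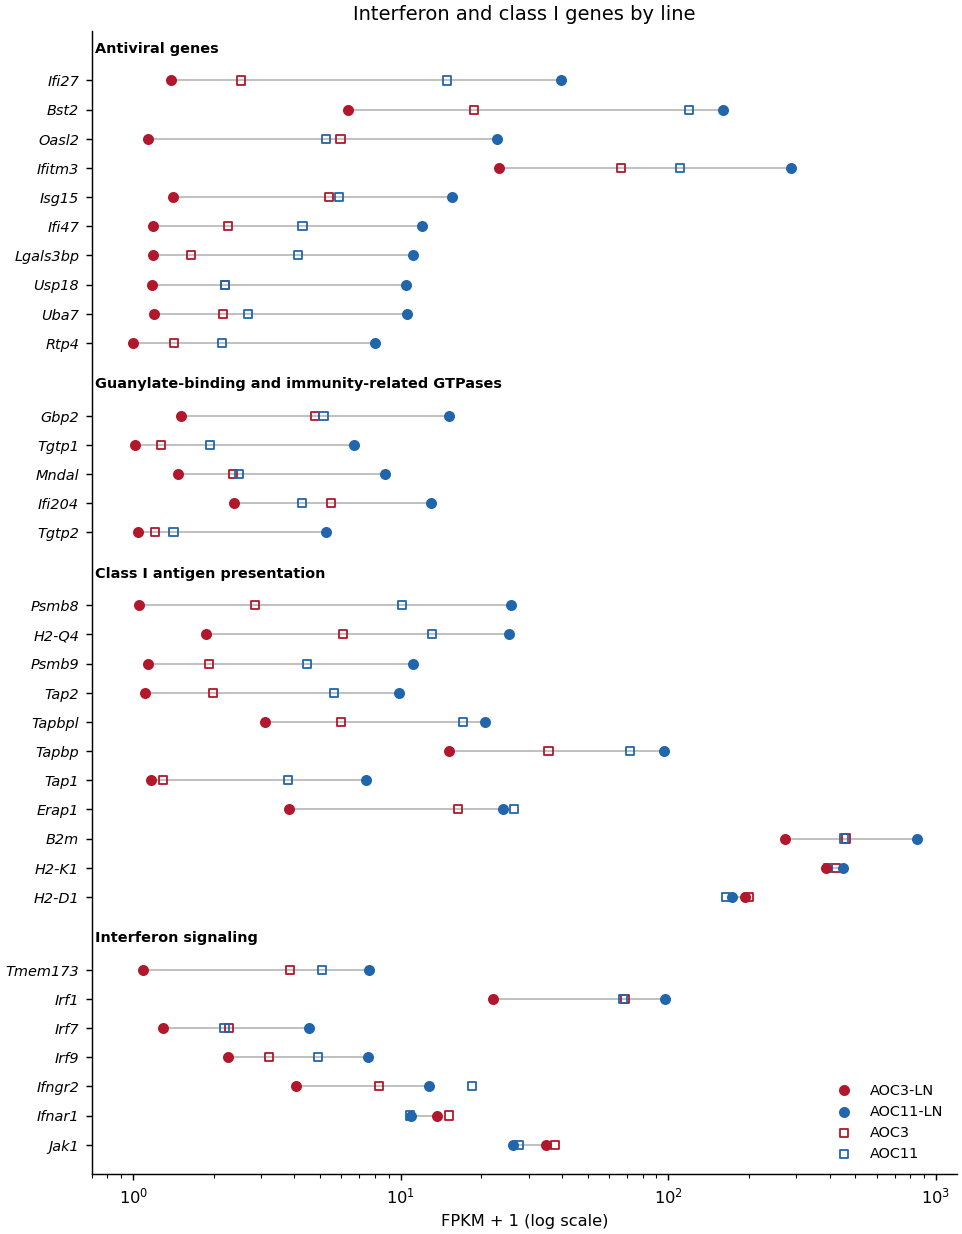
FPKM + 1 on a log scale for interferon-related and class I genes, with filled circles for the lymph node lines, open squares for the primary lines, red for mouse 3 and blue for mouse 11. AOC3-LN is at the left and AOC11-LN at the right for most genes, the primary lines lie mainly between them, and H2-K1, H2-D1, Ifnar1 and Jak1 lie close together in all 4 lines.

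Other genes of immune interaction went the same way in part. Of 11 immune checkpoint ligands past the filter (of 20), 6 were called higher in AOC11-LN and 0 higher in AOC3-LN. The median of the 11 was -1.01, and 4 of the 11 passed only through AOC11-LN. Lgals9, which encodes galectin-9, a ligand of TIM-3, was at 0.768 FPKM in AOC3-LN and 20.1 FPKM in AOC11-LN, and Nectin2, a ligand of TIGIT, was at 15.6 and 78.2 FPKM. Cd276 (B7-H3) at 16.4 and 34.5 FPKM had a difference of -1.03 and was no longer called when the columns were scaled to a common median. Cd274, which encodes PD-L1, was below the 1 FPKM filter at 0.397 FPKM in AOC3-LN and 0.898 FPKM in AOC11-LN.

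Of 7 complement genes past the filter (of 15), 6 were called higher in AOC11-LN, 4 of the 7 having passed only through that line, with a median of -1.86. C1s1, the C1s protease of the classical pathway, was at 0.0257 and 22.5 FPKM and C1ra, its activator, at 0.0250 and 6.92 FPKM. A noncoding gene antisense to C1s1, Gm16567, was listed at 0 in AOC3-LN and at 16.5 FPKM in AOC11-LN, and although the library kit keeps the strand, the strand setting of the counting is not given, so its reads and those of C1s1 cannot be told apart. C3, the central complement component, was at 8.01 and 24.0 FPKM. C5ar1, the receptor of the C5a fragment, was the exception at 1.24 FPKM in AOC3-LN and listed at 0 in AOC11-LN.

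Cytokines and chemokines were mixed. Of 27 past the filter (of 35), 6 were called higher in AOC3-LN and 10 higher in AOC11-LN. Of the 27, 2 passed only through AOC3-LN and 8 only through AOC11-LN. The median of -0.23 changed sign to 0.04 under quantile normalization. The interferon-inducible Cxcl10, a chemokine for T cells, was at 0.178 FPKM in AOC3-LN and 6.90 FPKM in AOC11-LN, and Ccl5, another T cell chemokine, was at 0.138 and 11.8 FPKM. In the other direction Il1a, the epithelial alarmin interleukin-1 alpha, was at 136 and 11.3 FPKM, Csf2 (GM-CSF) at 18.4 and 1.30 FPKM, and Csf3 (G-CSF) at 75.7 and 26.3 FPKM. Ppbp, a neutrophil chemokine, was at 256 and 25.7 FPKM in the lymph node lines and at 26.4 and 103 FPKM in AOC3 and AOC11, the reverse order.

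Of the squamous lists, the basal keratins, kallikreins and late squamous genes had calls mainly toward AOC3-LN. The transcription factors had calls in both directions. The 3 called basal and stratified keratins (of 8 past the filter and 14 in the list) were Krt5, Krt6a and Krt6b. Krt6a, a stress keratin (ENSMUSG00000058354.7, chromosome 15, 101689910 to 101694307), was at 81.1 FPKM in AOC3-LN and 1.40 FPKM in AOC11-LN, a difference of 5.10. The noncoding Gm49428, annotated antisense to it, moved with it at 48.1 and 0.815 FPKM, under the same limit on the counting. Krt5, the type II keratin of basal cells, was at 275 and 17.0 FPKM, whereas Krt14, its usual type I partner, was at 150 and 259 FPKM, a difference of -0.78 that was not called.

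Simple epithelial keratins were alike except for Krt7. Krt8 was at 1078 and 986 FPKM, Krt18 at 1322 and 1115 FPKM, and Krt19 at 50.1 and 63.3 FPKM. Krt7, a keratin of glandular and transitional epithelia (ENSMUSG00000023039.17, chromosome 15, 101411043 to 101430313), was at 5.91 FPKM in AOC3-LN and 306 FPKM in AOC11-LN, a difference of -5.47. The primary lines had 13.05 FPKM in AOC3 and 635 FPKM in AOC11, and Krt5 had 499 and 4.99 FPKM, so both keratins had the same order in the primary pair.

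The kallikrein-related peptidases are secreted serine proteases of a gene cluster on chromosome 7 that act in epithelial shedding. Of 10 members 4 passed the filter, Klk8 in both lines and the other 3 only through AOC3-LN, and these 4 were called higher in AOC3-LN with a median of 3.69. Klk8 (ENSMUSG00000064023.4, chromosome 7, 43797577 to 43803826) was at 411 FPKM in AOC3-LN and 3.53 FPKM in AOC11-LN, a difference of 6.51, the largest of any gene tested. Klk10 was at 27.6 and 0.913 FPKM, Klk6 at 13.2 and 0.263 FPKM, and Klk9 at 6.15 and 0.164 FPKM. In the primary pair these 4 genes were also called higher in AOC3.

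Of 15 cornified envelope and late squamous genes past the filter (of 30), 9 were called higher in AOC3-LN and 2 higher in AOC11-LN, with a median of 1.07, and 5 of the 15 passed only through AOC3-LN and 3 only through AOC11-LN. In the primary pair 3 of the 15 were called higher in AOC3 and 2 higher in AOC11, and the median of -0.23 had the opposite sign. Serpinb2, the plasminogen activator inhibitor PAI-2 (ENSMUSG00000062345.10, chromosome 1, 107511423 to 107535478), was at 162 FPKM in AOC3-LN and 4.65 FPKM in AOC11-LN. Sprr1a, a cornified envelope precursor, was at 25.4 and 2.43 FPKM. Tgm1, the transglutaminase that crosslinks the envelope, was among the 2 exceptions at 0.918 and 10.6 FPKM, and Asprv1, a skin protease, was the other at 0.989 and 4.57 FPKM. Involucrin (Ivl) was close in both lines at 1.40 and 0.978 FPKM.

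AP-1 is a dimer of FOS and JUN proteins that acts at many epithelial and stress genes. Its consensus, TGANTCA, which reads alike on both strands, stood in 4.88% of all promoter windows, in 8.69% of those of genes called higher in AOC3-LN and in 6.27% of those of genes called higher in AOC11-LN. Among the cornified envelope and late squamous genes it stood in 5 of 12 windows, while it stood in 0 of 4 windows of the kallikreins, 0 of 6 of the EGF receptors and ligands and 0 of 16 of the ERK pathway output genes. Lists with calls mainly toward AOC11-LN held it as well, in 7 of 30 antiviral windows and 3 of 12 in the GTPase list. Another such list, of glutathione, Nrf2 and metal-binding genes, held it in 6 of 26 windows. The 250 bases before the start are shown for the 3 protein-coding genes of 10 FPKM or more with the largest positive difference that hold it there, with the match in capitals:
Serpinb2: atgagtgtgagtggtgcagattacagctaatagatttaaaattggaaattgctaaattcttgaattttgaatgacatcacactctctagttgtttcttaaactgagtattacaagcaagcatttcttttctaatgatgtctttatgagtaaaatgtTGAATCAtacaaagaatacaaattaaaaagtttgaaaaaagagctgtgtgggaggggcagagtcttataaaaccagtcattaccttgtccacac
Cpa4: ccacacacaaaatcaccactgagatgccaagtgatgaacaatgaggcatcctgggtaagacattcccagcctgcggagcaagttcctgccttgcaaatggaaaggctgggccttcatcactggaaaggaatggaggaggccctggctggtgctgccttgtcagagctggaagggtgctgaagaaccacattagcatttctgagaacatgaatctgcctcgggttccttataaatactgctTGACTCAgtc
Il1a: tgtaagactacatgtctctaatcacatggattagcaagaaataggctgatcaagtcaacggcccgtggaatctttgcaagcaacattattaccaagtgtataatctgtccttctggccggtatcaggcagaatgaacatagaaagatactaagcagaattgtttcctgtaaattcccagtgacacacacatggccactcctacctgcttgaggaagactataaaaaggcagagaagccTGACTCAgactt
These windows lie at chr1:107511173-107511422 (plus strand), chr6:30568119-30568368 (plus strand) and chr2:129309973-129310222 (minus strand). Cpa4, a carboxypeptidase gene, was at 21.2 FPKM in AOC3-LN and 0.370 FPKM in AOC11-LN.

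Calls among ligands of the EGF receptor family and genes induced by ERK signaling were likewise toward AOC3-LN. Of 10 EGF receptors and ligands past the filter (of 13), 4 were called higher in AOC3-LN and 0 higher in AOC11-LN, with a median of 0.92. Hbegf was at 156 and 20.4 FPKM, Areg (amphiregulin) at 93.4 and 19.2 FPKM, Ereg (epiregulin) at 8.64 and 2.98 FPKM, and Nrg1 (neuregulin 1) at 24.1 and 1.30 FPKM. The receptors were closer. Egfr was at 11.3 FPKM in AOC3-LN and 5.64 FPKM in AOC11-LN, a difference of 0.89 that passed 1 only under quantile normalization (1.05), and Erbb2 was at 12.3 and 18.98 FPKM.

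Of 25 ERK pathway output genes past the filter (of 28), 11 were called higher in AOC3-LN and 0 higher in AOC11-LN, with a median of 0.72. Dusp1, a phosphatase of stress and ERK-family kinases, was at 35.8 FPKM in AOC3-LN and 1.70 FPKM in AOC11-LN, a difference of 3.77. Dusp5, a nuclear ERK phosphatase, was at 64.2 and 11.1 FPKM, and Fosl1, the FRA-1 subunit of AP-1, at 84.1 and 19.3 FPKM. The immediate-early factor Egr1 was at 9.81 and 2.24 FPKM. Other outputs did not differ by a call, with Dusp6 at 97.3 and 73.7 FPKM, Etv4 at 46.6 and 70.2 FPKM, and Ccnd1 (cyclin D1) at 235 and 318 FPKM. In AOC3 and AOC11 the same list had 2 members called higher in AOC3 and a median of 0.11.

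**Figure D3:**
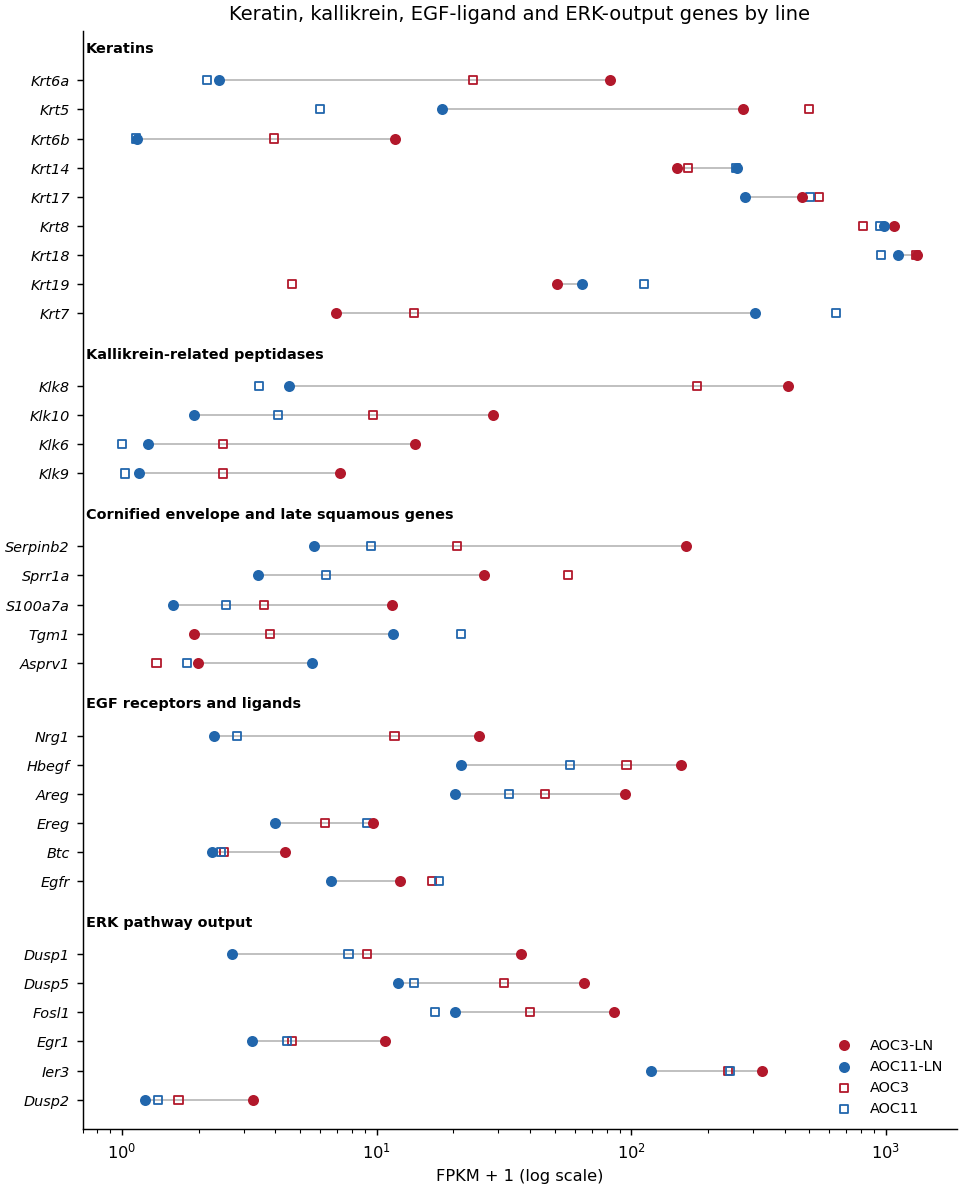
FPKM + 1 on a log scale for keratins, kallikreins, late squamous genes, EGF-family genes and ERK outputs, with the same symbols as for the interferon genes. Krt5, Krt6a and Klk8 separate both pairs of lines by mouse, Krt8 and Krt18 lie together, and the ERK outputs spread mainly between the lymph node lines.

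The squamous transcription factors did not share 1 direction. Of 17 past the filter (of 20), 2 (11.8%) were called higher in AOC3-LN and 5 (29.4%) higher in AOC11-LN. The shares over all genes were 5.21% and 10.8%. Of the 17, 2 passed only through AOC3-LN and 5 only through AOC11-LN. Pitx1, a homeobox factor of oral and hindlimb development, was at 15.7 and 0.255 FPKM, and Klf4, a factor of barrier differentiation, at 17.7 and 5.39 FPKM. Gata3 was at 0.784 and 5.42 FPKM and Tfap2c at 0.0587 and 4.05 FPKM. The epithelial regulator Grhl2 was at 18.8 and 19.5 FPKM and did not differ by a call.

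Most epithelial junction genes did not reach a call, but the list leaned toward AOC11-LN. Of 22 junction genes past the filter (of 24), 1 (4.55%) was called higher in AOC3-LN and 4 (18.2%) higher in AOC11-LN. The shares over all genes were 5.21% and 10.8%. The median was -0.55, against -0.10 over all genes, and 17 of the 22 were below 0. Cdh1 (E-cadherin) was at 158 and 183 FPKM, Tjp1 (ZO-1) at 28.4 and 30.8 FPKM, and Epcam at 509 and 493 FPKM. Cldn6, a claudin of embryonic epithelia, was at 7.79 and 0.363 FPKM, and Cdh3 (P-cadherin) at 25.9 and 64.0 FPKM. Ocln and Cgn, with differences of -1.06 and -1.003, were no longer called when scaled to a common median.

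Of 13 mesenchymal genes past the filter (of 23), 3 were called higher in AOC3-LN and 4 higher in AOC11-LN. Vim (vimentin) was at 118 FPKM in AOC3-LN and 27.2 FPKM in AOC11-LN, a difference of 2.08. Fn1 (fibronectin) was at 259 and 92.8 FPKM, and Prrx1, a mesenchymal homeobox factor, at 18.3 and 0.569 FPKM. Its relative Prrx2 had the opposite order at 0.741 and 9.34 FPKM, as did S100a4 at 7.95 and 30.8 FPKM. Twist1 was at 14.5 and 16.0 FPKM. The list therefore held members in both directions while the epithelial genes stayed high in both lines.

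Outside these groups, the largest differences toward AOC11-LN included Serpinh1, the collagen chaperone HSP47 (ENSMUSG00000070436.12, chromosome 7, 99345376 to 99353239), at 2.65 FPKM in AOC3-LN and 180 FPKM in AOC11-LN, a difference of -5.63. Nupr1, a stress-induced chromatin protein, was at 0.989 and 89.8 FPKM, and Cd81, a tetraspanin, at 6.13 and 170 FPKM. AOC3 had 38.7 FPKM of Serpinh1 and 80.1 FPKM of Cd81, and AOC11 had 144 and 117 FPKM, so AOC3-LN stood below the other 3 lines for both.

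Lcp1 (L-plastin), an actin bundler of leukocytes that tumor cells also express, was at 0.429 and 36.0 FPKM, and Arhgdib, a GTPase regulator of hematopoietic cells, at 0.0957 and 33.1 FPKM. The pan-leukocyte marker Ptprc was below 0.1 FPKM in both lines, as given above. Tmem176a and Tmem176b, neighbouring genes that overlap on opposite strands, were at 0.357 and 33.6 FPKM and at 0.669 and 56.6 FPKM, and reads from the overlap may count for either gene. Tead2, a partner of YAP, was at 1.30 and 54.3 FPKM.

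The largest differences toward AOC3-LN outside the squamous genes included Adgra2, an adhesion receptor that acts in WNT7 signaling, at 38.8 and 0.601 FPKM. Nes (nestin), an intermediate filament of progenitor cells, was at 63.9 and 3.53 FPKM, and Nptx1, a neuronal pentraxin, at 22.8 and 0.304 FPKM. Nup62cl was at 23.3 FPKM in AOC3-LN and listed at 0 in AOC11-LN. Each of these genes was also higher in AOC3 than in AOC11.

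Homeobox genes of the Hox clusters were mostly under the filter. Only 4 of 39 Hox genes passed the filter, 3 of them only through AOC11-LN, and these 4 were called higher in AOC11-LN. Hoxa4, Hoxa5 and Hoxa7 were listed at 0 in AOC3-LN and at 2.15, 1.54 and 4.44 FPKM in AOC11-LN. In AOC11 these 3 genes were at 0.0629, 0 and 0.0651 FPKM. Among the 4 libraries these genes reached 1 FPKM in AOC11-LN alone.

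Of 23 other patterning transcription factors past the filter (of 43), 2 were called higher in AOC3-LN and 11 higher in AOC11-LN. The median of the 23 was -0.996, and 9 of the 23 passed only through AOC11-LN and 2 only through AOC3-LN. Msx2, a craniofacial homeobox factor, was at 0.559 and 20.2 FPKM, and Pax3, a neural crest and muscle factor, at 0.0242 and 7.51 FPKM. Eya2, a transcriptional coactivator, had the opposite order at 17.0 and 4.74 FPKM. Pax3 was at 0.0141 FPKM in AOC3 and 0.0453 FPKM in AOC11, whereas Msx2 was at 0.750 FPKM in AOC3 and 16.5 FPKM in AOC11.

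Among 17 Wnt pathway genes past the filter (of 34), 2 (11.8%) were called higher in AOC3-LN and 7 (41.2%) higher in AOC11-LN. The shares over all genes were 5.21% and 10.8%. Of the 17, 5 passed only through AOC11-LN and 0 only through AOC3-LN. The ligand Wnt10a was at 7.45 and 62.1 FPKM, Wnt11 at 0.657 and 12.2 FPKM, and the receptor Fzd7 at 0.468 and 7.36 FPKM. Nkd2, a Wnt antagonist, was at 11.9 and 1.62 FPKM. Wnt7b at 63.0 and 59.7 FPKM and the coreceptor Lrp5 at 41.9 and 39.9 FPKM did not differ by a call.

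Among 14 Notch pathway genes past the filter (of 22), 1 (7.14%) was called in each direction, against 5.21% and 10.8% of all genes. The receptor Notch1 was at 0.777 and 12.7 FPKM, a difference of -2.94, and the ligand Dll4 was at 3.76 and 0.300 FPKM. Notch2 at 6.26 and 7.14 FPKM and the DNA-binding partner Rbpj at 78.9 and 78.8 FPKM were alike in both lines.

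Among 27 TGF-beta and BMP pathway genes past the filter (of 33), 7 were called higher in AOC3-LN and 4 higher in AOC11-LN, with a median of 0.55. Bmp6 was at 7.61 and 0.322 FPKM, Inhba, the activin A subunit, at 17.6 and 3.54 FPKM, and Smad4, the shared signal transducer, at 61.1 and 25.1 FPKM. Gdf15, a stress-induced cytokine of the family, was at 4.73 and 0.0252 FPKM.

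Matrix genes were mixed. Of 17 matrix proteases and inhibitors past the filter (of 28), 5 were called higher in AOC3-LN and 4 higher in AOC11-LN. Timp1, an inhibitor of matrix metalloproteinases, was at 178 and 19.9 FPKM and Serpine2 at 15.1 and 1.71 FPKM, while Mmp9, a gelatinase, was at 5.60 and 16.9 FPKM. Plau, the urokinase gene, was at 737 and 612 FPKM. Of 24 integrins and laminins past the filter (of 28), 6 were called higher in AOC3-LN and 4 higher in AOC11-LN. Itga6, a hemidesmosome integrin, was at 260 and 69.0 FPKM, whereas Itgb5, a vitronectin receptor chain, was at 6.14 and 57.8 FPKM.

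The prostaglandin list had 1 gene called higher in AOC3-LN and 2 higher in AOC11-LN of 10 past the filter (of 17). Ptgs2 (COX-2), the inducible enzyme of prostaglandin synthesis, was at 53.2 FPKM in AOC3-LN and 4.95 FPKM in AOC11-LN, a difference of 3.19, and at 4.91 FPKM in AOC3 and 52.0 FPKM in AOC11. Ptges, the terminal prostaglandin E synthase, was at 6.89 and 14.2 FPKM in the lymph node lines. Among 10 insulin-like growth factor genes past the filter (of 14), 2 were called higher in AOC3-LN and 4 higher in AOC11-LN, with the binding proteins Igfbp4 at 16.9 and 1.39 FPKM and Igfbp7 at 205 and 636 FPKM.

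Glutathione, Nrf2 and metal-binding genes tended lower in AOC3-LN, with a median of -0.63 over the 29 past the filter (of 33). Of the 29, 3 were called higher in AOC3-LN and 11 higher in AOC11-LN. The filter was passed only through AOC11-LN by 6 of the 29, among them Gstm2, Mgst1 and Ephx1. The members toward AOC11-LN were mainly glutathione transferases and microsomal enzymes. Gstm2 was at 0.117 and 12.3 FPKM, Mgst1 at 0.175 and 6.45 FPKM, and Ephx1, the microsomal epoxide hydrolase that acts on carcinogen epoxides, at 0.881 and 11.1 FPKM. The mu-class transferases are close paralogs and their individual values are uncertain. Toward AOC3-LN were G6pdx, the entry enzyme of the pentose phosphate pathway, at 235 and 65.3 FPKM, Txnrd1 at 154 and 67.5 FPKM, and Slc7a11, the cystine transporter, at 6.54 and 2.39 FPKM, all targets of NRF2. Nqo1, another target, was at 1.79 and 2.10 FPKM.

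In cholesterol and fatty acid synthesis, 32 genes were past the filter (of 33), with a median of -0.32. Of these, 3 (9.38%) were called higher in AOC3-LN and 4 (12.5%) higher in AOC11-LN, against 5.21% and 10.8% of all genes. Fdps, a farnesyl diphosphate synthase, was at 209 and 584 FPKM. Sqle, the squalene epoxidase, was at 68.4 and 115 FPKM and was not called. In glycolysis and the hypoxia response, 4 (12.1%) and 5 (15.2%) of 33 were called. Ldhb was at 0.737 and 12.4 FPKM and Aldoc at 3.21 and 23.6 FPKM, while the main glycolytic isoforms were close, with Ldha at 1223 and 836 FPKM and Gapdh at 2723 and 2946 FPKM.

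Proliferation genes were alike. Of 39 cell cycle and DNA replication genes past the filter (of 40), 1 was called higher in AOC3-LN and 0 higher in AOC11-LN, and the median was 0.08. Mki67 was at 39.5 and 35.8 FPKM, Cdk1 at 338 and 320 FPKM, and Pcna at 242 and 204 FPKM, and the called gene was Ccnd2 (cyclin D2) at 31.9 and 13.8 FPKM. Among 23 p53 targets and cell cycle inhibitors past the filter (of 24), 3 were called higher in AOC3-LN and 6 higher in AOC11-LN. Pmaip1 (NOXA), a pro-apoptotic target, was at 78.6 and 6.81 FPKM and Cdkn1a (p21) at 23.8 and 7.64 FPKM, and Cdkn2b (p15) had the opposite order at 28.6 and 112 FPKM.

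Of 15 genes that the study lists with mutations in its lines, 13 passed the filter. Of these, 1 (7.69%) was called higher in AOC3-LN and 2 (15.4%) higher in AOC11-LN, against 5.21% and 10.8% of all genes. Trp53 was at 110 and 82.1 FPKM, Hras at 64.3 and 85.4 FPKM, Cdkn2a at 216 and 345 FPKM, Fat1 at 42.4 and 22.05 FPKM, and Kmt2d at 7.65 and 11.8 FPKM, none of them called. Epha2, an ephrin receptor, was at 251 and 72.3 FPKM, a difference of 1.78. Fgfr1, a fibroblast growth factor receptor, was at 5.71 and 70.5 FPKM, a difference of -3.41, and Notch1 is described above. Which allele the RNA came from was not analysed here.

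All 13 mitochondrially encoded protein genes were above 0, 4 of them called, with a median of 0.97 against -0.19 in the primary pair. Mitochondrial entries made up 5.16% of all FPKM in AOC3-LN and 3.73% in AOC11-LN. mt-Co1 was at 5669 and 3537 FPKM and mt-Nd1 at 1762 and 829 FPKM. mt-Atp8, at 8353 and 1464 FPKM, overlaps mt-Atp6 and is close to the length limit, so its value is uncertain.

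Of 10 imprinted genes past the filter (of 26), 2 were called in each direction. Snrpn and Snurf, which share a transcript of the imprinted cluster on chromosome 7, were listed at 0 in AOC3-LN and at 21.1 and 10.8 FPKM in AOC11-LN. Mest was at 22.1 and 4.56 FPKM. Of the prolactin family 3 of 8 genes passed the filter, 2 of them called higher in AOC3-LN, with Prl2c2 at 7.22 and 1.35 FPKM. Prl2c2 has near-identical copies, so its value is uncertain.

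**Figure D4:**
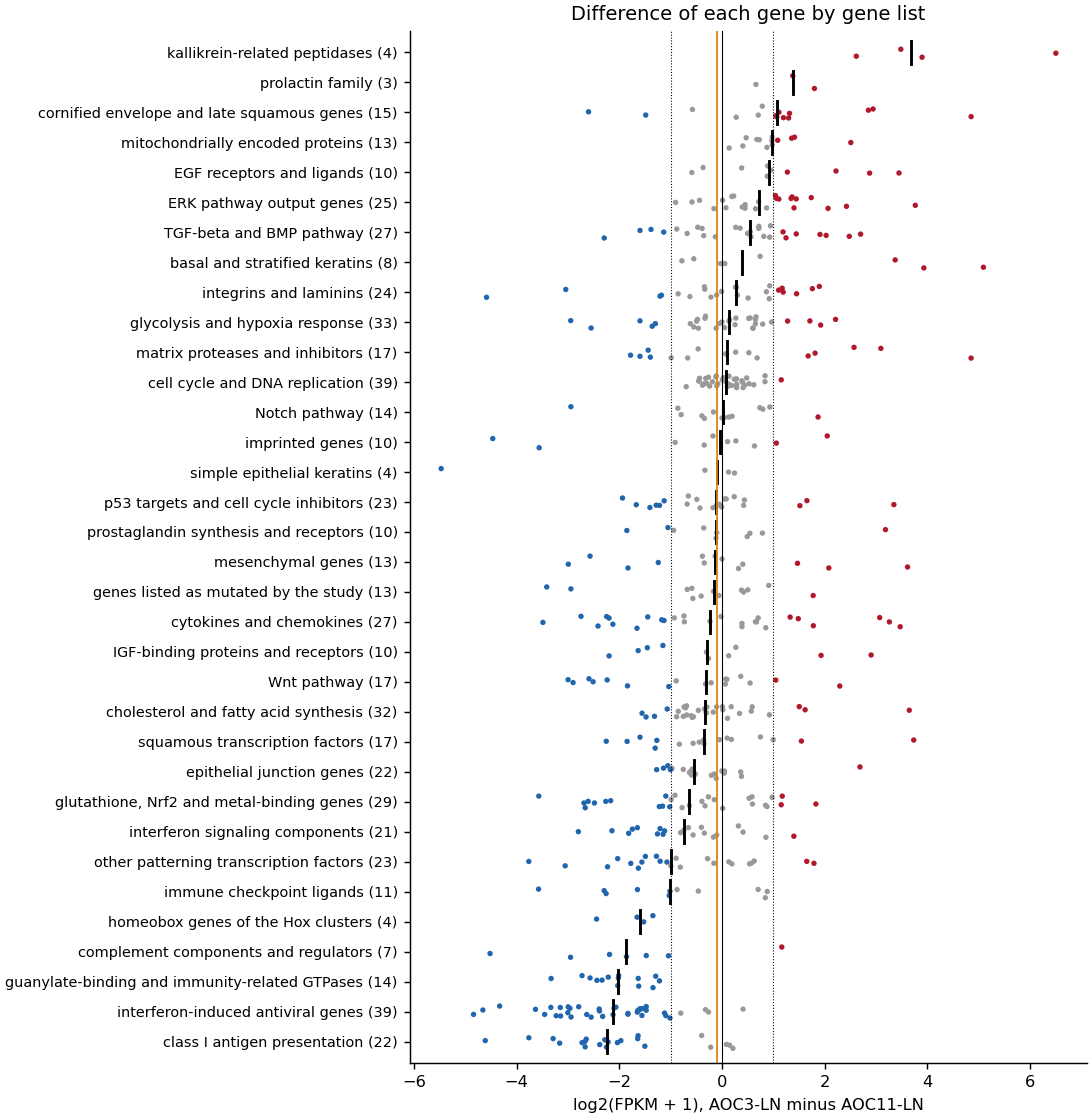
Difference (AOC3-LN minus AOC11-LN, log2(FPKM + 1)) of each gene past the filter in the 34 lists, with the number of genes in parentheses. Points are genes, red or blue where the difference exceeds 1, black bars are list medians and the orange line is the median of all genes, -0.10. The kallikreins lie farthest right with a median of 3.69 (3 of the 4 passed the filter only through AOC3-LN), the class I genes farthest left with -2.23, and the cell cycle genes lie around 0.

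Noncoding genes were called as well. Of 289 lincRNA genes tested, 40 (13.8%) were higher in AOC3-LN and 21 (7.27%) higher in AOC11-LN, where protein-coding genes had 564 (5.04%) and 1318 (11.8%) of 11181. Snhg12, a small nucleolar RNA host gene, was at 190 FPKM in AOC3-LN and 37.6 FPKM in AOC11-LN. AW112010, an interferon-inducible noncoding gene, was at 0.150 and 8.94 FPKM. Both were chosen after their values were seen.

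Of the 694 genes called higher in AOC3-LN, 253 (36.5%) were also higher in AOC3 than in AOC11 by more than 1, which is 34.6% of the 732 genes higher in AOC3. Of the 1438 genes called higher in AOC11-LN, 382 (26.6%) were also higher in AOC11, which is 63.3% of the 603. The opposite call was made for 5 (0.72%) and 59 (4.10%) genes. Over all 13314 genes tested, 5.5% were higher in AOC3 and 4.53% higher in AOC11 by more than 1. The lymph node libraries and the primary libraries are separate, and each primary line shares a mouse with a lymph node line.

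Differences were not spread evenly over the chromosomes. The median was 0.50 over 342 genes of chromosome 18, of which 21.3% were called higher in AOC3-LN, and 0.40 over 390 genes of chromosome 16, of which 11.3% were. It was -0.42 on chromosome 3, -0.41 on chromosome 7 and -0.38 on chromosome 6, where 19.4% of 643 genes were called higher in AOC11-LN. Calls toward the other line were 5.85% on chromosome 18, 4.87% on chromosome 16 and 3.58% on chromosome 6. Over all genes, 5.21% were called higher in AOC3-LN and 10.8% higher in AOC11-LN. In the primary pair the medians of chromosomes 18 and 16 were 0.10 and 0.20, and those of chromosomes 3, 7 and 6 were -0.31, -0.08 and -0.17. Along chromosome 16, divided into 5 stretches of 78 genes each, the medians ran from 0.34 to 0.42. DNA copy number was not analysed here.

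**Figure D5:**
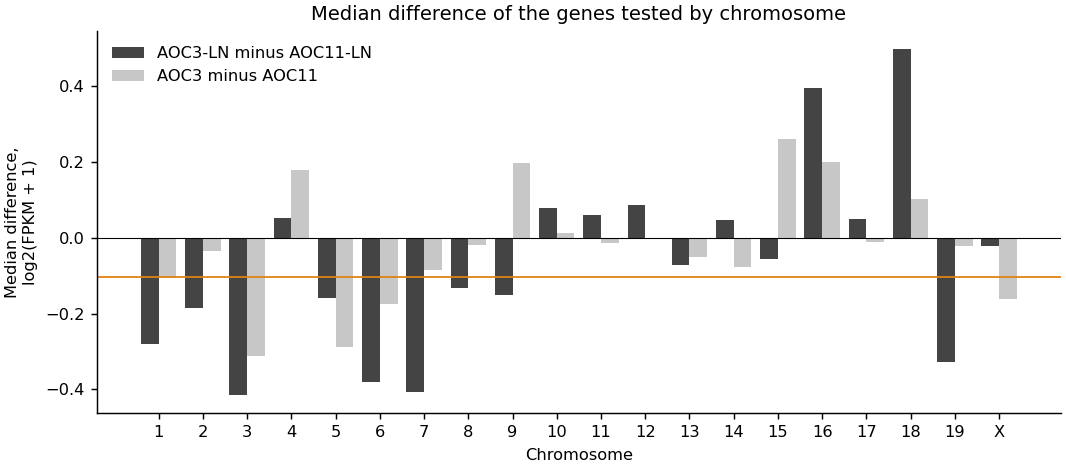
Median difference of the genes tested on each chromosome with 50 or more of them, dark bars for AOC3-LN minus AOC11-LN and light bars for AOC3 minus AOC11, in log2(FPKM + 1). The orange line is the median of all genes in the lymph node pair. Chromosomes 16 and 18 stand highest and chromosomes 3, 6 and 7 lowest in the lymph node pair.

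The share of calls toward AOC11-LN also went with base composition and length. Among protein-coding genes ordered by the GC content of the longest transcript, 8.27% of the lowest of 5 bins (31.0% to 43.8% GC) and 16.6% of the highest bin (55.6% to 76.3% GC) were called higher in AOC11-LN, with medians of -0.06 and -0.26. In the primary pair those medians were -0.13 and -0.01. The share fell from 14.6% in the bin with the shortest transcripts to 7.92% in the bin with the longest. The antiviral genes had a median GC of 50.3% and the GTPase list 43.1%, against 49.8% over all protein-coding genes. The class I genes had 53.7%. The part of base composition and length in any gene's difference was not tested.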

How the data were processed

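RNA-seq libraries from untreated cultures of AOC3-LN and AOC11-LN were compared, 1 library per line, with AOC3 and AOC11 as a separate readout. According to the submitters' processing notes and the study's methods, libraries were made with a stranded mRNA kit, and reads were trimmed with Trim Galore, aligned to mm10 with TopHat2 and quantified with Cufflinks on GENCODE M21. The authors deposited FPKM values, which are normalized for transcript length and library total but not log-transformed or quantile-normalized. The tools' versions and the strand setting of the counting are not given in the sources used here. GENCODE M21, which matched every identifier, supplied names, gene types, positions and lengths of transcripts. For 29 genes with more than 1 entry, the entry with the highest mean over the 4 lines was used.

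Differences were computed with Python 3.11.15, numpy 2.4.6 and pandas 2.3.3 as log2(FPKM + 1), over genes at 1 FPKM or more in either lymph node column with a longest transcript of 200 bases or longer. The pseudocount of 1 understates differences of low genes. With 1 library per line no test was run, and calls at a difference above 1 were tested on simulated data only for their arithmetic. The table holds no read counts, so fragments were estimated from the spacing of low FPKM values of single-transcript genes: 71.2% (AOC3-LN) and 73.3% (AOC11-LN) of these values came within 0.1 of a whole number, where 20% would by chance. A depth of 2 times the estimate described the spacing about as well, and the lower depth was used.

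Named genes were the 15 protein-coding genes of 10 FPKM or more that differed most in either direction, the 5 largest differences in each of 34 lists, list members needed to say that a defining gene did not differ, and genes the study names in its text. The members and lists were chosen with earlier results of these data known. Alternatives were quantile normalization, scaling to a common median or total, a pseudocount of 0.1, other filters and other thresholds. Some genes of these lists are not reported here.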

Additional observations from a re-analysis of the deposited data

Results flagged for a closer look

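Among the 186 genes that the naming rules picked, 7 were called in opposite directions in the lymph node pair and in the primary pair. Aim2, outside these 186, had -1.34 in the lymph node pair and 3.23 in AOC3 minus AOC11. The difference between the pairs was not tested, since each line has 1 library. Toward AOC3-LN, Ptgs2 had a difference of 3.19 in the lymph node pair and -3.17 in AOC3 minus AOC11, Ppbp had 3.26 and -1.92, and the prolactin-family gene Prl2c2 had 1.80 and -2.55. Toward AOC11-LN, Gstk1, a mitochondrial and peroxisomal glutathione transferase, had -2.61 and 1.05. Ltbp2, a matrix protein related to the latent TGF-beta binding proteins, had -2.29 and 1.83, Igfbp6 had -2.20 and 2.02, and Dlx3, a homeobox factor of late epidermal differentiation, had -1.60 and 1.89.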

How the results depend on the processing

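No alternative turned the direction of any of the 159 called genes among the 186 picked by the naming rules. Other genes given in the text were not followed in this way. Calling at a difference above 2 left 130 genes higher in AOC3-LN and 347 higher in AOC11-LN, and calling at 1.5-fold gave 1719 and 3074. With 5 FPKM required in either line, 547 genes were higher in AOC3-LN and 945 higher in AOC11-LN. The other alternatives for the counts stayed within 1.5 times, from 564 to 981 higher in AOC3-LN and from 1110 to 1973 higher in AOC11-LN, and without a filter the counts stayed at 694 and 1438. Under quantile normalization 4 named genes were no longer called and 4 others newly called, and the same numbers held for scaling to a common median. The medians of the simple keratin, cytokine, prostaglandin, p53 and imprinted lists changed sign under quantile normalization, and those of the simple keratin and imprinted lists under median scaling. Cytokine, prostaglandin and imprinted medians also changed sign with the 5 FPKM filter, matrix protease and integrin medians without a filter, and the imprinted median with transcripts of 400 bases or longer. The cause of these changes was not tested. Values near 0 FPKM rest on few fragments, so folds against them are poorly determined, and no replicate shows how far a repeat library of either line would differ. No paired analysis was possible because each line has 1 library and no test was run.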
